A study of Mus musculus with 24 samples.

Results

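Cultured mouse cortical neurons labelled as Smarcc2 knockout were compared, at rest, with the same kind of knockout neurons to which wild-type Smarcc2 had been added back. Members were chosen by their titles: 2 resting libraries of knockout neurons with wild-type Smarcc2 (called WT) and 3 resting libraries of knockout neurons with vector (called vector), 5 of the 24 libraries of the series. All 5 came from primary neurons of embryonic day 16.5 cortex kept for 18 days in vitro. Both groups carried the CRISPR guide RNA against Smarcc2, and both were silenced overnight with 1 µM tetrodotoxin, which blocks sodium channels, and 100 µM D-AP5, which blocks NMDA receptors. Their one labelled difference is the construct. The guide's cut site, the promoter of the constructs and the share of cells that took them up are not given in the sources used here.

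Other groups enter for orientation and through the test, because all 8 groups of 18 days in vitro were fitted together and share one estimate of spread. They too came from embryonic day 16.5 cortex and were given 1 µM tetrodotoxin and 100 µM D-AP5. Resting neurons with a non-targeting guide RNA (NT, 2 libraries) give the level with the gene intact. WT and vector cultures depolarized with 50 mM KCl for 30 min (3 and 3 libraries) repeat the same construct comparison in libraries that the resting one does not use. Knockout neurons given Smarcc2 with the S586E substitution (3 resting libraries) are named for a few genes. NT cultures under the same KCl treatment (replicates 1 and 2) serve to list genes that differed between vector and NT there. Knockout neurons given Smarcc2 with the S586A substitution, under KCl (replicates 1 and 2), enter the joint fit only. The protocol counted the cortex of each embryo as a biological replicate, and the p-values measure the spread between these samples. Ribosomal RNA was depleted before the libraries were made, and no poly(A) selection was used for them.

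Smarcc2 (BAF170) and its paralog Smarcc1 (BAF155) are scaffold subunits of BAF complexes, which use ATP to slide or evict nucleosomes and so open chromatin at enhancers and promoters. Neurons assemble a BAF complex with subunits of their own as they leave the cell cycle, and mutations in several subunits cause disorders of brain development. At rest, activity-dependent genes are held near their basal level, and a comparison made there reads the standing program rather than the response to calcium entry.

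The libraries held 22378019 and 20662492 estimated counts (WT) and 19177644, 18409433 and 15882404 (vector), and 20940 genes were tested. Levels are counts relative to the TMM-scaled library size (CPM), listed in the order of replicates 1, 2 and 3. The neuron markers Map2, Snap25 and 10 others summed to 4000 to 4374 CPM in the WT libraries and to 4003 to 4734 CPM in the vector libraries, and 6 of 10 microglia markers were too low to be tested. The 14 inhibitory neuron markers were less even, with sums of 566, 395 and 196 CPM in the vector libraries and 458 and 305 CPM in the WT libraries. Vector replicate 3 also stood apart in astrocyte genes (Gja1 at 6.05 CPM against 23.0 and 21.3 CPM) and in mitochondrially encoded genes, whose sum was 54563 CPM against 37446 and 29384 CPM. The WT libraries stood apart in the ribosomal-RNA-like entries Lars2 and Gm42418, described further on.

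Smarcc2 sequences are shown first, because the added RNA and the RNA of NT neurons were assigned to different annotated forms of the gene. Smarcc2 lies on chromosome 10 (GRCm38, plus strand, 128459248 to 128490482). Its form Smarcc2-202 (29 exons, 3390 coding bases) holds a 93-base exon that Smarcc2-201 (28 exons, 3297 coding bases) and Smarcc2-203 (28 exons, 3639 coding bases) skip. That exon is exon 18 of Smarcc2-202, at chr10:128481682-128481774, and codes for 31 codons. It is in capitals below, with the last and first 15 bases of the neighbouring exons in lower case.
alternative exon 18: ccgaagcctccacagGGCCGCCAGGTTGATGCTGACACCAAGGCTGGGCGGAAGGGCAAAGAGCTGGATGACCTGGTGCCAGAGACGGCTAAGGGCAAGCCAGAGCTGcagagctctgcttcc
The exon lies before the codon with the number that the S586E construct is named for, so that the form decides which codon has that number. The spliced coding sequence around it is given with 30 bases on each side and the codon in capitals, and the last line shows the TCC of the first line as it lies in Smarcc2-203.
Smarcc2-202, codon of the S586E number: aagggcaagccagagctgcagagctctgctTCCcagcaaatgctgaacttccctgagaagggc
Smarcc2-203, codon of the S586E number: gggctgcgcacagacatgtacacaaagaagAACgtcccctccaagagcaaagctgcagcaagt
Smarcc2-203, codon 555: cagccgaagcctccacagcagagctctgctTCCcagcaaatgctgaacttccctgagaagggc
TCC, a codon for serine, has the number in S586E where the alternative exon is included and is number 555 where it is skipped, since counting starts at the first codon of each form. Smarcc2-201 has the same codon as Smarcc2-203 at that number, AAC, which codes for asparagine. The sequences are those of GENCODE M21 on GRCm38. The sequence of the construct itself is not given in the sources used here.

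The added RNA was counted almost wholly on the forms without the exon. Smarcc2-202 held 158 and 134 CPM in the NT libraries, 19.5, 26.4 and 27.2 CPM in the vector libraries, and 8.08 and 14.7 CPM in the WT libraries. Its share of the Smarcc2 counts was 58.1% in NT, 45.4% in vector and 1.45% in WT. Smarcc2-203, whose coding sequence is the longest of the 3, held 25.2 and 35.2 CPM in NT, 1.78, 3.57 and 9.73 CPM in vector, and 486 and 458 CPM in WT. Smarcc2-201 held 77.0 and 65.9 CPM in NT, 15.1, 10.0 and 21.5 CPM in vector, and 268 and 244 CPM in WT. Both WT libraries thus lay above every vector and NT library in the forms that skip the exon, and below every one of them in the form that includes it. The non-coding form Smarcc2-206 also lay higher with WT (47.7 and 36.3 CPM) than with vector (7.42, 3.99 and 4.06 CPM). Reads shared by several forms were divided by the authors' quantification, so these values are estimates and were not tested.

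**Figure D1:**
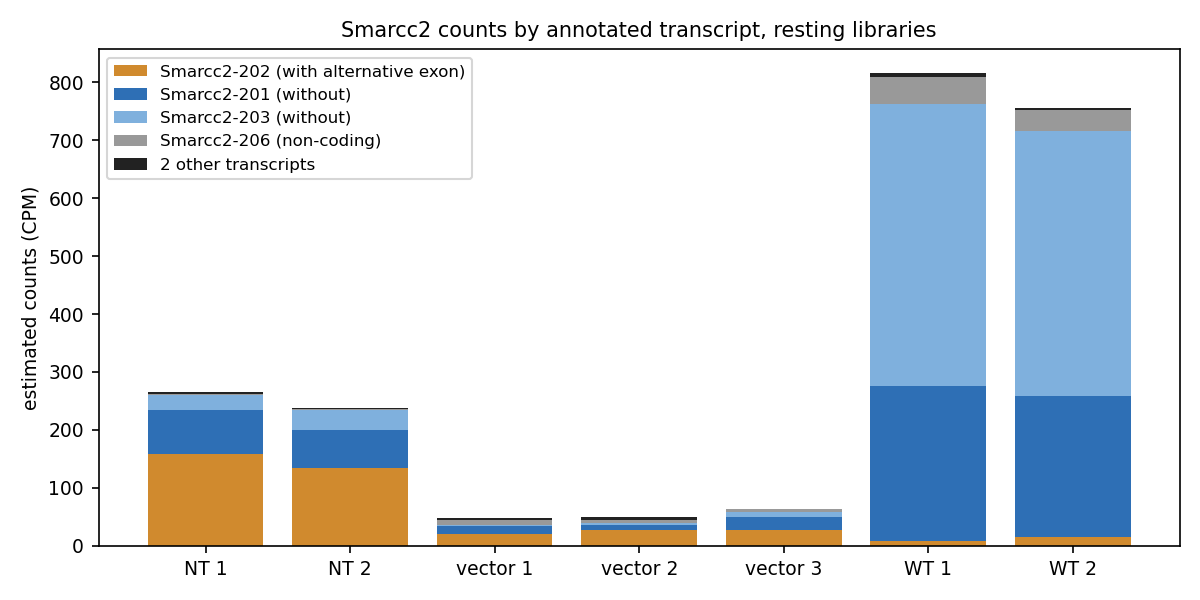
Estimated counts of Smarcc2 (CPM, linear axis) in each resting library, stacked by annotated transcript. The orange part, the form with the alternative exon, makes up 58.1% of the NT bars on average and 1.45% of the WT bars, while the 2 blue forms without it fill most of the WT bars.

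Smarcc2 was the only gene that rose with the WT construct at an adjusted p under 0.05. Vector libraries held 47.1, 49.8 and 64.1 CPM (875 to 1006 estimated counts), WT libraries 816 and 756 CPM, and NT libraries 265 and 237 CPM. The groups did not overlap: every WT library was above every NT library, and every vector library was below. The mean was 53.6 ± 9.12 CPM with vector (SD, n = 3) and 786 ± 42.6 CPM with WT (SD, n = 2), a 14.7-fold rise (log2 fold change 3.88 ± 0.15 SE, edgeR quasi-likelihood test, adjusted p = 8.06e-12). WT neurons thereby held 3.13-fold the Smarcc2 RNA of NT neurons (log2 fold change 1.65, edgeR adjusted p = 5.75e-05). The counts cover RNA of the construct and of the edited gene alike, and the level of the protein was not measured here. Under KCl the same 2 groups held 895, 737 and 1089 CPM (WT) and 49.1, 47.5 and 60.0 CPM (vector). The resting S586E libraries held 1236, 1164 and 1276 CPM of Smarcc2, all above both WT libraries.

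Smarcc1, the paralog, was not called by edgeR or DESeq2. It held 94.5, 90.7 and 89.0 CPM with vector, 87.4 and 88.8 CPM with WT, and 88.5 and 102 CPM in NT (log2 fold change −0.05 ± 0.08 SE, edgeR adjusted p = 0.861). Per length, on the deposited TPM scale, Smarcc2 stood at 21.9 ± 2.80 TPM (SD, n = 3) with vector and 186 ± 18.7 TPM (SD, n = 2) with WT, beside Smarcc1 at 19.1 ± 0.211 and 15 ± 2.83 TPM. By summed TPM, Smarcc2 and Smarcc1 were thus close to each other in vector neurons, and Smarcc2 was far above Smarcc1 in WT neurons. The sums take in all annotated forms, short ones of 603 to 865 bases included, which weigh more per count than long ones. By counts, vector libraries held less Smarcc2 (mean 53.6 CPM) than Smarcc1 (mean 91.4 CPM). The closeness in TPM therefore does not extend to the full-length forms, whose TPM were not separated.

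No other BAF subunit was called by edgeR or DESeq2, and their log2 fold changes ran from −0.38 (Bicra) to 0.32 (Bcl7c). Of 30 subunits tested, 16 were higher and 14 lower with WT, the median log2 fold change was 0.01, and Smarcc2 was the one that passed the adjusted threshold. Among all genes 48.3% were higher and 51.7% lower, with a median of −0.01. At an unadjusted p under 0.05, a level that 11.1% of all genes reached (5.87% higher and 5.19% lower), 3 subunits were higher and 4 lower. Arid1a, the large DNA-binding subunit of canonical BAF, held 271, 250 and 196 CPM with vector and 190 and 191 CPM with WT (log2 fold change −0.33 ± 0.10 SE, edgeR adjusted p = 0.217). Arid2, its counterpart in the PBAF form, held 89.1, 84.8 and 92.4 CPM with vector and 70.6 and 77.9 CPM with WT (log2 fold change −0.26). Bicra, which defines the non-canonical form with Brd9, had a log2 fold change of −0.38, and Smarce1 one of −0.21. Brd9 itself had 0.27, and the PBAF subunit Phf10 had 0.23. None of these 6 reached an adjusted p under 0.05.

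Beyond Smarcc2, the edgeR test called 2 genes at rest, Pgk1 and Fras1, both lower with WT. With 2 and 3 libraries, a gene that was not called may still differ. The 3 calls are 0.0143% of the 20940 genes tested, with 0.00478% called higher and 0.00955% called lower. A gene is named as called where this edgeR test passed it, and calls by other fits are named as such. DESeq2 in place of edgeR called 178 genes (0.85%; 88 higher and 90 lower), so the count of calls depends on the tool. The 3 genes called by edgeR were among those 178. With the replicate number as a block, edgeR called 36 genes (0.172%), and with no filter on low counts it called 604 (1.47%). Leaving out vector replicate 3 gave 23 calls by edgeR (0.111%), 16 higher and 7 lower, with Rpl13, Erich3, Kcnq3 and Arid1a among the added genes. Vector against NT at rest, which shares the vector libraries, had 1236 genes called (5.9%), and WT against NT had 22 (0.105%), by the same edgeR test.

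Pgk1 encodes phosphoglycerate kinase, an enzyme of glycolysis that makes ATP. The gene lies on chromosome X (GRCm38, 106187100 to 106203699). Vector libraries held 1292, 1269 and 1278 CPM, WT libraries 571 and 588 CPM, and NT libraries 512 and 570 CPM. WT and NT libraries lay together, and all 3 vector libraries lay above them within a narrow band. The mean was 1280 ± 11.6 CPM with vector (SD, n = 3) and 580 ± 11.9 CPM with WT (SD, n = 2), so that vector neurons held 2.21-fold the WT level (log2 fold change −1.14 ± 0.10 SE, edgeR adjusted p = 1.93e-05). At least 99.8% of the Pgk1 counts of each group were on the protein-coding transcript Pgk1-201. The sequences of the constructs are not given in the sources used here, and whether construct RNA was counted on Pgk1 was not tested. Against NT, the log2 difference was 1.24 for vector (edgeR adjusted p = 5.24e-06) and 0.10 for WT (edgeR adjusted p = 0.908), and the comparisons share libraries with the one of WT and vector.

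The depolarized libraries gave the same order for Pgk1. Vector held 1525, 1367 and 1671 CPM under KCl, and WT held 597, 543 and 506 CPM (log2 fold change −1.47 ± 0.09 SE, edgeR adjusted p = 3.30e-08). Smarcc2 and Pgk1 were the 2 genes called between WT and vector under KCl (0.00955% of genes tested). The difference of the 2 Pgk1 fold changes had an unadjusted p of 0.0258 and did not pass adjustment over all genes. S586E cultures held 465, 479 and 403 CPM of Pgk1 at rest, below every vector library.

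**Figure D2:**
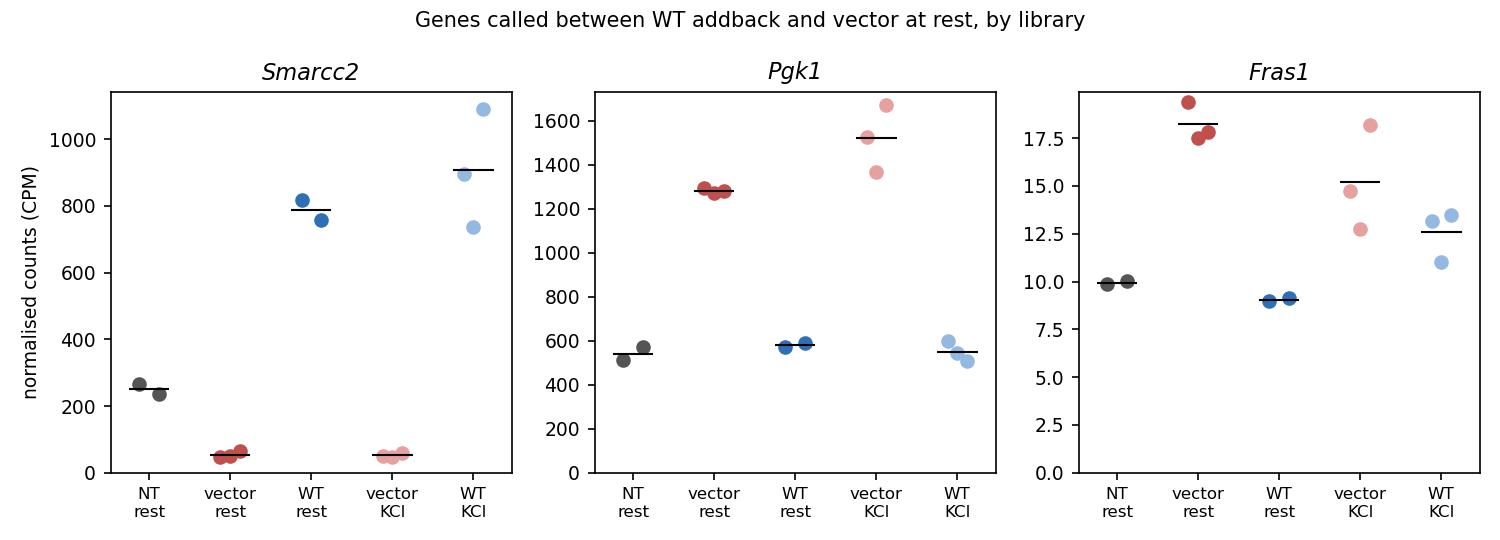
Smarcc2, Pgk1 and Fras1 in each library (normalised CPM, linear axes from 0), with bars at the group means, for NT, vector and WT at rest and for vector and WT under KCl. Pgk1 sits between 1269 and 1292 CPM in the resting vector libraries and between 571 and 588 CPM in the WT libraries, and Fras1 separates the constructs at rest but not under KCl.

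Pgk1 had lower counts with WT, while the other genes of its pathway in the list had higher values. The list of 19 glycolysis genes and glucose transporters had 18 members higher with WT and 1 lower, Pgk1, and the median log2 fold change was 0.37. In 15 of the 19 (78.9%) both WT libraries lay above all 3 vector libraries, against 13.7% of all genes. At an unadjusted p under 0.05, 12 were higher (63.2%, against 5.87% of all genes), yet none of the 18 passed adjustment over all genes with edgeR. DESeq2 called 3 of the 18 (Slc2a1, Gpi1 and Ldha), where it called 0.85% of all genes. With no filter on low counts edgeR called 11, in a fit that called 604 of 41147 genes (1.47%). The list was chosen because Pgk1 was known to be called, so its counts are a description.

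Among the 18 genes with higher values, the largest fold changes were those of Hk2, Slc2a1 and Pfkl, which act in glucose entry and the first steps. Slc2a1, the glucose transporter GLUT1, held 32.4, 40.6 and 28.2 CPM with vector and 58.3 and 82.4 CPM with WT (log2 fold change 1.06 ± 0.24 SE, edgeR adjusted p = 0.127). Hk2, a hexokinase that traps glucose in the cell, held 3.99, 5.59 and 0.892 CPM with vector and 8.11 and 24 CPM with WT (log2 fold change 2.17 ± 0.70 SE, edgeR adjusted p = 0.243). The NT libraries spread as widely, at 7.48 and 28.4 CPM for Hk2 and at 58.0 and 108 CPM for Slc2a1. Pfkl, a phosphofructokinase subunit, held 65.3, 73.2 and 47.8 CPM with vector and 105 and 122 CPM with WT (log2 fold change 0.87). In these 3 genes the vector libraries were all below the WT and NT libraries, and vector replicate 3 was the lowest.

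Apart from Pgk1, the other genes had smaller fold changes. Gpi1, the isomerase after hexokinase, had 461, 516 and 416 CPM with vector and 666 and 762 CPM with WT (log2 fold change 0.62). Ldha, which turns pyruvate into lactate, had 239, 251 and 195 CPM with vector and 326 and 361 CPM with WT (log2 fold change 0.59). Enolase Eno1 had a log2 fold change of 0.60, the aldolase Aldoc, an astrocyte marker as well, 0.68, and the phosphofructokinase subunit Pfkp 0.42. Tpi1 (0.37), Aldoa (0.34), Pgam1 (0.28) and the neuronal enolase Eno2 (0.27) followed in descending order of log2 fold change. Pkm, Slc2a3, Hk1, Pfkm and Ldhb lay between 0.04 and 0.21, and Gapdh at 0.42 had an unadjusted p of 0.106. Eno1 shares sequence with its near-identical copy Eno1b, so the split of reads between them is uncertain.

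Under KCl the median of the glycolysis list was 0.11, and the log2 fold change was −0.04 for Slc2a1 and −0.03 for Hk2. The difference between the states had an unadjusted p of 0.00325 for Slc2a1 and 0.027 for Hk2, and no gene passed adjustment. Across all genes, 0 of 20940 were called for the difference between states by edgeR, 768 (3.67%) had an unadjusted p under 0.05, and DESeq2 called 1. The astrocyte genes, which are low in vector replicate 3, move with part of the glycolysis genes, and their part was not tested. Without that library the median of the glycolysis list at rest was 0.30.

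**Figure D3:**
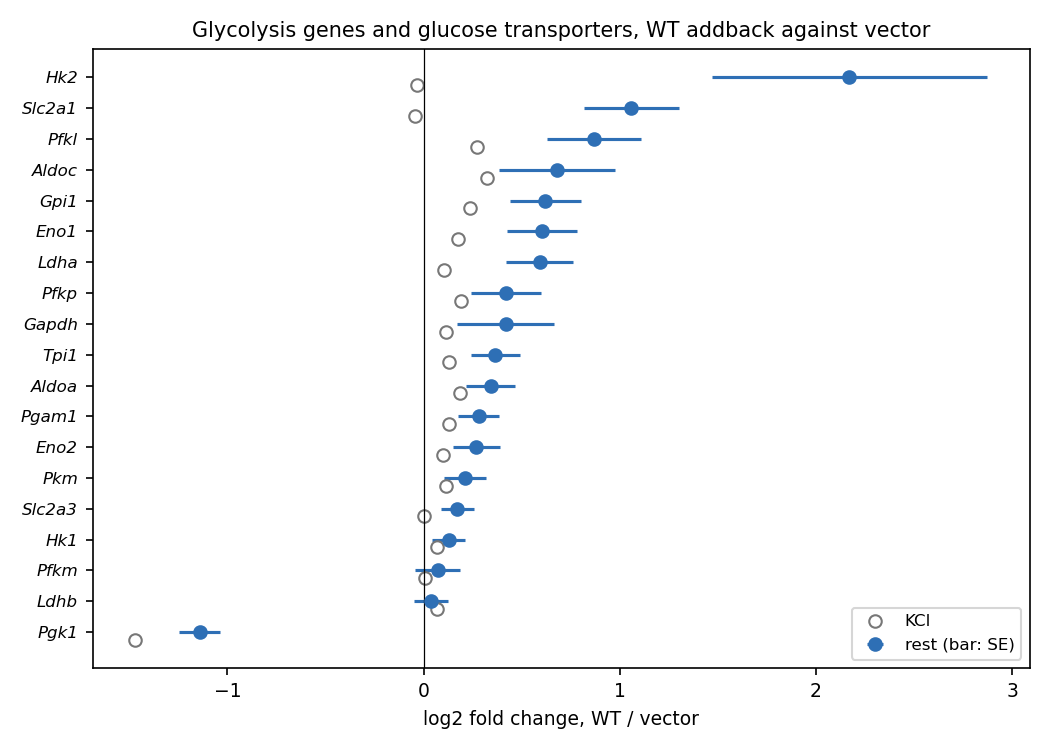
Log2 fold change of WT over vector for the 19 glycolysis genes and glucose transporters, at rest (filled, with the SE) and under KCl (open). Pgk1 stands alone on the left in both states, and Hk2 and Slc2a1, the largest at rest, are near 0 under KCl.

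Fras1 encodes an extracellular matrix protein of the Fraser complex, best known from epithelial basement membranes. It lies on chromosome 5 (GRCm38, 96373955 to 96784728). Vector libraries held 19.4, 17.5 and 17.8 CPM (280 to 360 estimated counts), WT libraries 8.97 and 9.11 CPM (189 and 192), and NT libraries 9.85 and 10.0 CPM. The vector libraries were again above both other groups. The log2 fold change was −1.01 ± 0.15 SE (edgeR adjusted p = 0.0154), with means of 18.2 ± 1.00 CPM for vector (SD, n = 3) and 9.04 ± 0.105 CPM for WT (SD, n = 2), and 98.3% to 98.4% of the counts were on the full-length Fras1-201. Under KCl, WT and vector overlapped (13.2, 11.0 and 13.5 CPM against 14.7, 12.7 and 18.2 CPM), with a log2 fold change of −0.27 (unadjusted p = 0.0479). The difference between states had an unadjusted p of 0.00142 and did not pass adjustment (edgeR adjusted p = 1.00). The call ended with length offsets weighted by the deposited TPM (log2 fold change −0.53, edgeR adjusted p = 0.608), when only the WT and vector groups were fitted (edgeR adjusted p = 0.167), and when vector replicate 1 (adjusted p = 0.109), WT replicate 1 (adjusted p = 0.271) or WT replicate 2 (adjusted p = 0.174) was left out.

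No other Fraser complex gene was called by edgeR or DESeq2. Grip1, a scaffold that delivers Fras1 to the membrane, held 28.4, 24.4 and 22.9 CPM with vector and 30.3 and 20.5 CPM with WT. Frem2, a partner of Fras1, had a log2 fold change of 0.47 at 1.66 to 3.61 CPM, and Npnt, a matrix ligand of the same membranes, one of 0.35. The other 3, Itga8, Frem1 and Frem3, lay at log2 fold changes of 0.20, −0.61 and −0.47, each at a low level.

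Genes close to the threshold were named by a rule on the contrast itself, so their direction is given and not tested anew: the 12 of smallest p in each direction with no overlap between groups. On the lower side, Erich3 held 17.1, 14.6 and 9.43 CPM with vector, 5.88 and 3.42 CPM with WT and 2.80 and 2.06 CPM in NT (log2 fold change −1.56 ± 0.27 SE, edgeR adjusted p = 0.0572). Zfp811, a zinc-finger protein gene, held 23.9, 21 and 23.9 CPM with vector and 12.2 and 12.7 CPM with WT (log2 fold change −0.88, edgeR adjusted p = 0.0572). Peg3, an imprinted zinc-finger gene, held 393, 350 and 344 CPM with vector, 254 and 237 CPM with WT and 242 and 209 CPM in NT (log2 fold change −0.56, edgeR adjusted p = 0.0846). In these 3 genes the WT libraries lay between the vector libraries and the NT libraries or overlapped NT. All of the 24 genes were called by DESeq2, 18 of them by edgeR with the replicate block and 8 without vector replicate 3. Of all genes these fits called 0.85%, 0.172% and 0.111%. They use the libraries by which the 24 were chosen, so the counts are a description and no separate support.

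Ion channels and axon guidance receptors were among the same 12. Kcnq3, a subunit of the M-type potassium channel that damps firing, held 180, 129 and 116 CPM with vector and 89.1 and 82.9 CPM with WT (log2 fold change −0.72). Cacna1e, the R-type calcium channel, held 301, 266 and 259 CPM with vector and 196 and 206 CPM with WT, and NT libraries at 260 and 254 CPM were on the vector side (log2 fold change −0.46). Plxna2, a semaphorin receptor, held 313, 267 and 269 CPM with vector and 208 and 207 CPM with WT (log2 fold change −0.45, edgeR adjusted p = 0.0572), and Sema5a, a semaphorin, had −0.92. Chromatin genes made up part of the rest: Kmt2c, a histone H3 lysine methyltransferase (−0.44), Chd6, a chromodomain remodeller (−0.36), and Trp53bp1, a DNA break repair factor (−0.41). Hivep3 (−0.39), a zinc-finger transcription factor, and Sh3rf3 (−0.37) closed the list.

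On the higher side, Rpl13, a protein of the large ribosomal subunit, held 116, 106 and 142 CPM with vector and 179 and 188 CPM with WT (log2 fold change 0.60 ± 0.11 SE, edgeR adjusted p = 0.0572), and Rps20 of the small subunit had 0.37. Ak4, an adenylate kinase of mitochondria, held 8.24, 10.1 and 9.49 CPM with vector, 15.7 and 19.8 CPM with WT and 15.7 and 26.8 CPM in NT (log2 fold change 0.94). The histone H4 genes Hist4h4 (0.77) and Hist1h4n (0.70), Eno1b (0.71) and Rnaset2b (0.93) have near-identical copies, so reads may be split among them. Snapc2, a subunit of the complex that drives small nuclear RNA genes, had 0.57, the SUMO ligase Pias3 0.57, the adaptor Shf 0.60 and the small GTPase Arl2 0.42. The edgeR adjusted p of the 24 genes ran from 0.0572 to 0.12. With the replicate block the 18 called were Erich3, Zfp811, Peg3, Kcnq3, Cacna1e, Plxna2, Sema5a, Kmt2c, Trp53bp1, Hivep3 and Sh3rf3 on the lower side and Rpl13, Ak4, Hist4h4, Hist1h4n, Eno1b, Rnaset2b and Snapc2 on the higher side.

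**Figure D4:**
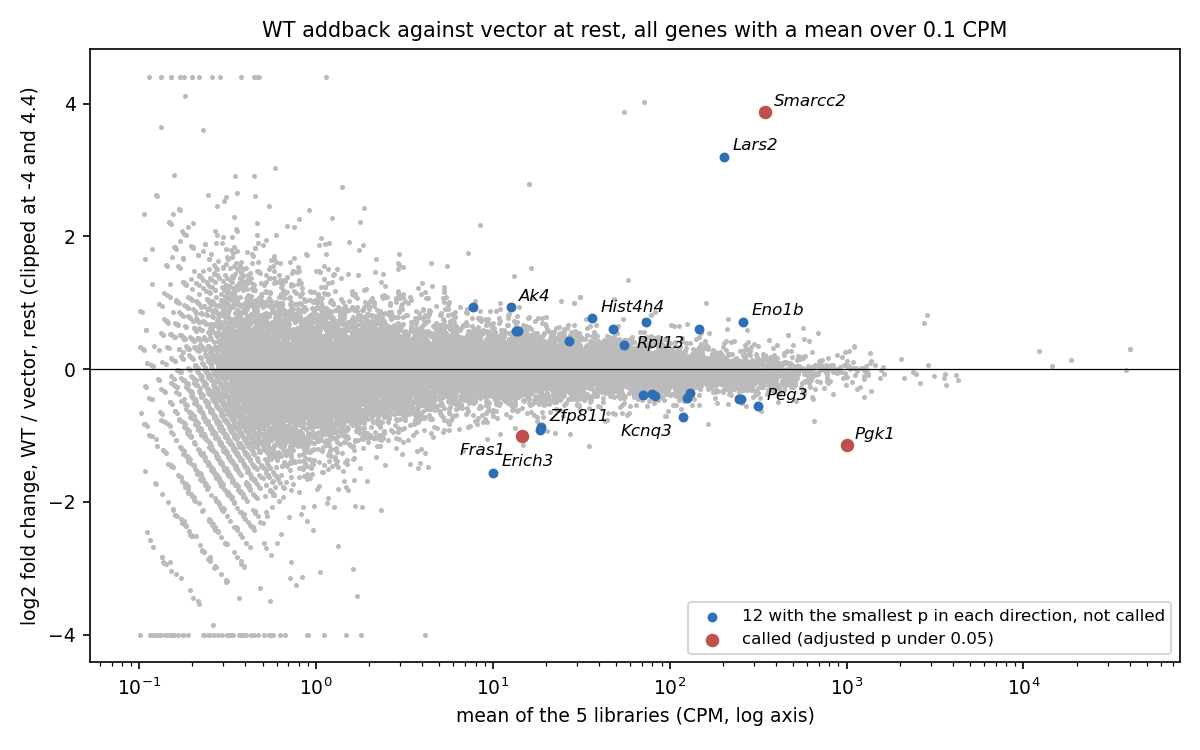
Log2 fold change of WT over vector at rest against the mean level of the 5 libraries (log axis) for genes with a mean over 0.1 CPM. The 3 called genes are red, and the 24 genes of smallest p that were not called are blue. Smarcc2 at 3.88 and Pgk1 at −1.14 stand clear of genes of like level, and Lars2 at 3.20 was not called by the same edgeR test.

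Lars2 had the largest fold of those 24 and the widest spread. It held 62.6, 44.1 and 34.8 CPM with vector, 590 and 280 CPM with WT and 47.2 and 37.2 CPM in NT (log2 fold change 3.20 ± 0.63 SE, edgeR adjusted p = 0.0867). The S586E libraries held 43.3, 229 and 42.6 CPM. Under KCl the order was the other way (52.0, 131 and 37.2 CPM with vector, 44.1, 30.5 and 31.1 CPM with WT; log2 fold change −1.06), and in both of these groups with a high value it came from 1 library. Lars2, the gene of a mitochondrial leucyl-tRNA synthetase, belongs to a list of entries to which ribosomal RNA reads can be assigned. Rn7sk, a small nuclear RNA, was put in the same list but is not ribosomal RNA. Of 6 tested entries of that list, 3 were higher at an unadjusted p under 0.05: Lars2, Gm42418 (2266, 2369 and 1964 CPM with vector, 4725 and 3017 CPM with WT) and Rn7sk (log2 fold change 0.28). Gm26917 (−0.01), mt-Rnr2 (0.14) and mt-Rnr1 (0.06) had log2 fold changes near 0, whose sign changed with the libraries used. WT replicate 1 was above WT replicate 2 in Lars2, Gm42418 and Rn7sk, and their part in other results was not tested.

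No activity-dependent gene was called by the reported edgeR fit in the silenced cultures. DESeq2 called 1, Egr2, as did edgeR with no filter on low counts, where these fits called 0.85% and 1.47% of all genes. Of 20 early-response genes, 11 were higher and 9 lower with WT, with a median log2 fold change of 0.07. Fos held 5.82, 8.34 and 4.59 CPM with vector and 5.08 and 4.65 CPM with WT, and Arc, the synaptic scaffold, held 36.2, 39.5 and 57.1 CPM with vector and 44.1 and 41.9 CPM with WT. Npas4 was at or under 1.27 CPM in all 5 libraries. At an unadjusted p under 0.05, 3 were lower (15%, against 5.19% of all genes) and none higher. They were Egr2 at −2.43 (1.35, 1.85 and 1.08 CPM with vector, 0.474 and 0.0475 CPM with WT; edgeR adjusted p = 0.181, DESeq2 adjusted p = 0.0131), Fosl2 at −0.35 and Nr4a3 at −0.32. Egr2 was near the detection limit in WT, while both NT libraries held 1.49 and 1.38 CPM. Of 10 late-response genes, 2 were higher and 8 lower, with a median of −0.21. The secreted granule proteins Scg2 (−0.33) and Vgf (−0.20), the growth factor Bdnf (−0.34) and Rgs2 (−0.49, unadjusted p = 0.029), a regulator of G-protein signalling, were among the 8, and none was called by edgeR or DESeq2. Vector replicate 3 held the highest Scg2 and Vgf, at 772 and 596 CPM.

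Synaptic genes leaned to lower values with WT. Of 24, 19 were lower (79.2%, against 51.7% of all genes) and 5 higher, with a median log2 fold change of −0.10. The longest of 4 bins of genes by effective length had a median of −0.07, and the part of length was not tested. In 7 (29.2%) both WT libraries lay below all vector libraries, against 12.4% of all genes. At an unadjusted p under 0.05, 5 were lower (20.8%, against 5.19% of all genes) and 1 higher (4.17%, against 5.87%). None was called by the reported edgeR fit. DESeq2 called Grin2b and Grin2a, as did edgeR with no filter on low counts, where these fits called 0.85% and 1.47% of all genes. The NMDA receptor subunit Grin2b held 1522, 1442 and 1223 CPM with vector and 985 and 1096 CPM with WT (log2 fold change −0.42 ± 0.10 SE, edgeR adjusted p = 0.151). Its adjusted p was 0.0435 by edgeR with the replicate block and 0.00924 by DESeq2. Grin2a held 416, 378 and 371 CPM with vector and 297 and 303 CPM with WT (log2 fold change −0.37, DESeq2 adjusted p = 0.023), whereas the obligatory subunit Grin1 was higher, at 496, 521 and 484 CPM with vector and 577 and 572 CPM with WT (log2 fold change 0.20). NT libraries held 694 and 659 CPM of Grin1, so the order was vector, WT, NT. The AMPA receptor subunits Gria2 (−0.34) and Gria1 (−0.29) were also at an unadjusted p under 0.05. Under KCl the list's median was −0.02.

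Neuronal identity genes had medians slightly below 0, in a comparison where 51.7% of all genes were lower and the longest of 4 bins of genes by effective length had a median of −0.07. Of 12 excitatory neuron markers 8 were lower (66.7%), with a median of −0.17. Slc17a6, a vesicular glutamate transporter, held 38.5, 33.1 and 27.3 CPM with vector and 25.6 and 22.8 CPM with WT (log2 fold change −0.45, edgeR adjusted p = 0.241). It had −0.38 under KCl too (unadjusted p = 0.00716). The cortical transcription factor Tbr1 (−0.39) also had an unadjusted p under 0.05. Of 12 general neuron markers 9 were lower (median −0.06; Map2 −0.20), and of 14 inhibitory neuron markers 8 were lower (57.1%; median −0.06; Vip −0.37). None of these genes was called by the reported edgeR fit or DESeq2. Tbr1 was called by edgeR with no filter on low counts, where it called 1.47% of all genes.

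Genes of oligodendrocyte precursors were low in both knockout groups. The receptor Pdgfra, a marker of oligodendrocyte precursors, held 19.7 and 30.3 CPM in NT, 0.916, 1.00 and 0.0637 CPM with vector and 2.13 and 1.76 CPM with WT. Cspg4, the NG2 proteoglycan of the same cells, held 13.9 and 21.3 CPM in NT, 3.02, 3.27 and 2.04 CPM with vector and 5.50 and 4.70 CPM with WT (log2 fold change of WT over vector 0.87, edgeR adjusted p = 0.418). Sox10, the lineage's transcription factor, had no count in any vector library and stood at 0.142 and 0.617 CPM with WT and at 2.76 and 8.40 CPM in NT. WT libraries were above vector libraries in these 3 genes and below both NT libraries. Over the 14 tested members of the list, both WT libraries lay above all vector libraries in 4 (28.6%, against 13.7% of all genes). They lay below all vector libraries in 3 (21.4%, against 12.4% of all genes). Olig1 overlapped between vector (10.3, 4.06 and 2.23 CPM) and WT (7.69 and 4.46 CPM), and the myelin gene Mbp leaned the other way (log2 fold change −0.30). Of 14 tested members of this lineage list, 10 were higher with WT, with a median of 0.36. None was called by the reported edgeR fit or DESeq2. The median ran from 0.09 to 0.59 over the alternatives. The list's summed level went the other way, at 184, 175 and 166 CPM with vector, 164 and 140 CPM with WT and 236 and 254 CPM in NT. With no filter on low counts, edgeR called Sox10, Pdgfra and Cspg4 (3 of 14), where it called 1.47% of all genes. Under KCl 12 of 14 were higher, with a median of 0.87. In bulk RNA, fewer cells of a type and less RNA per cell cannot be told apart.

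The median of the astrocyte genes turned on 1 library. Of 12, 8 were higher with WT, with a median of 0.37, and none was called by the reported edgeR fit or DESeq2. With no filter on low counts, edgeR called 5, all higher (Aldoc, Fgfr3, Gja1, Sox9 and Aldh1l1), where it called 1.47% of all genes. In 4 (33.3%) both WT libraries lay above all vector libraries, against 13.7% of all genes, and in 0 below all of them. Slc1a3, a glutamate transporter, held 84.7, 75.5 and 24.3 CPM with vector and 74.2 and 76.1 CPM with WT. Gja1, a gap junction protein, held 23.0, 21.3 and 6.05 CPM with vector and 27.3 and 24.1 CPM with WT. Without vector replicate 3 the median was −0.02. The list's summed level was 982 to 1514 CPM with vector, 1156 to 1341 CPM with WT and 1956 and 1785 CPM in NT. Every vector and WT library thus lay below both NT libraries in this sum. Under KCl, all 12 were higher with WT (median 0.37).

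**Figure D5:**
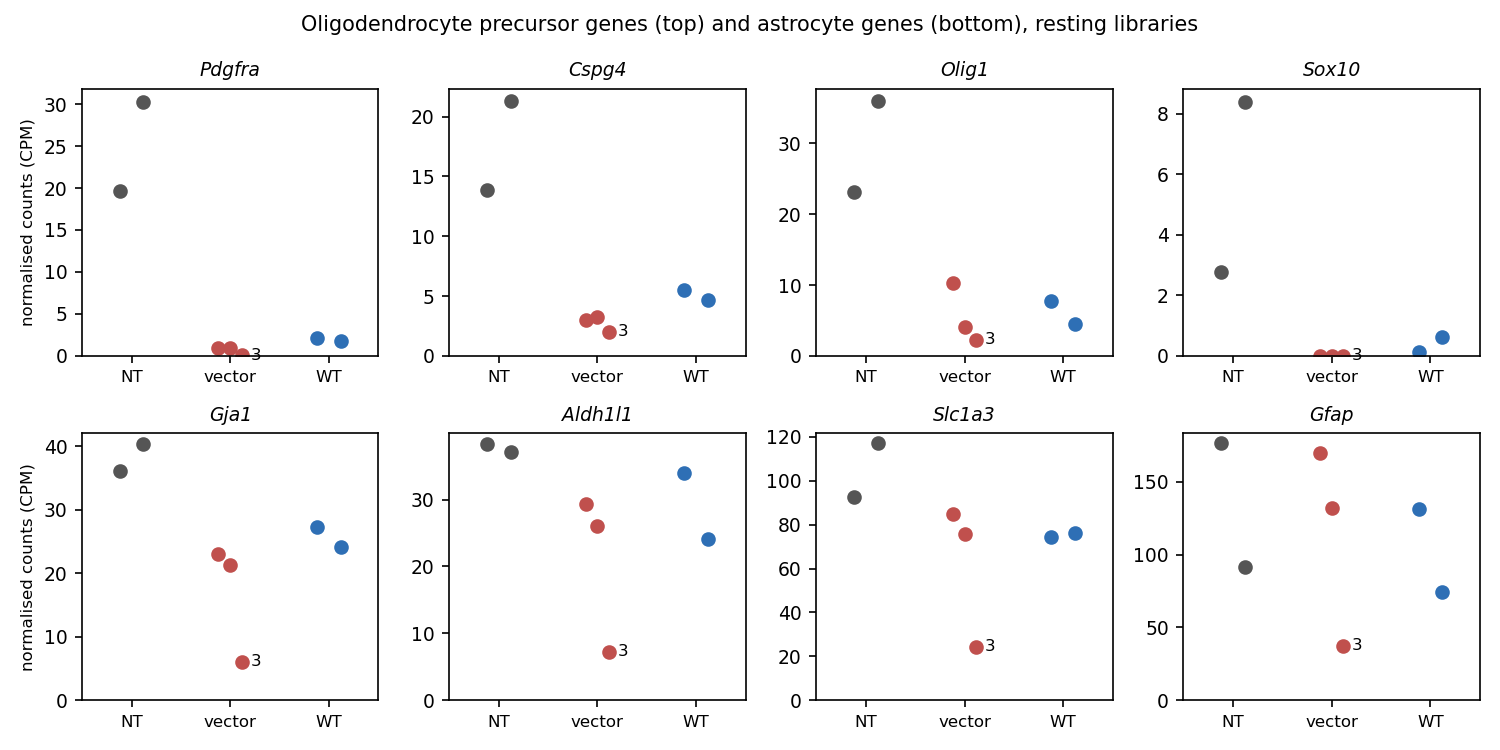
Oligodendrocyte precursor genes (top) and astrocyte genes (bottom) in each resting library (normalised CPM, linear axes from 0), with vector replicate 3 marked 3. Pdgfra, Cspg4 and Sox10 are far lower in both knockout groups than in NT, and among the vector libraries replicate 3 is the lowest in Gja1 and Slc1a3. The astrocyte list as a whole also summed to less in every vector and WT library than in NT.

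Genes called between vector and NT under KCl were then followed at rest. Vector against NT under KCl had 560 genes called by edgeR (2.67%), of which 408 were lower (1.95%) and 152 higher (0.726%), and those libraries are not among the resting ones. Of the 407 called lower in vector apart from Smarcc2 itself, 279 (68.6%) were higher with WT than with vector at rest, where 48.3% of all genes were. At an unadjusted p under 0.05, 78 of them were higher (19.2%, against 5.87% of all genes) and 19 lower (4.67%, against 5.19%). Of the 152 called higher in vector, 102 (67.1%) were lower with WT at rest, with 24 (15.8%) lower and 2 (1.32%) higher at that level. The shifts were small: the medians were 0.09 and −0.09, and Pgk1 was the one gene of both lists called at rest by edgeR. DESeq2, which called 0.85% of all genes, called 10 of the 407, 8 higher and 2 lower with WT. Of the 152 it called 3, all lower with WT. Vector libraries of the same number deviated together in the 2 states (Pearson r across genes of 0.135, 0.196 and 0.349 for replicates 1, 2 and 3), and the WT libraries did not (−0.084 and −0.197 for replicates 1 and 2). The KCl lists may share culture effects with the resting vector libraries, and this was not tested.

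The remaining lists had no gene called by the reported edgeR fit or DESeq2. With no filter on low counts, a fit that called 1.47% of all genes, edgeR called Cdkn1a, Phlda3 and Ccng1 (3 of 10 p53 targets). It also called Csf1r (1 of 4 tested microglia markers), Ddit3 (1 of 10 stress-response genes) and mt-Nd3 (1 of 13 mitochondrially encoded protein genes). Of 12 proliferation genes 9 were higher with WT (median 0.35), with the replication clamp Pcna at 0.39 and the mitotic gene Cenpf at −1.15, each with an unadjusted p under 0.05. Of 10 p53 targets 5 were higher and 5 lower (median 0.04). Cdkn1a, the cell-cycle inhibitor p21, held 71.6, 71.2 and 103 CPM with vector and 105 and 119 CPM with WT (log2 fold change 0.46, unadjusted p = 0.0186), and Phlda3 (0.51) and Ccng1 (0.34) were also at an unadjusted p under 0.05. Of 10 stress-response genes 8 were higher (median 0.11), and the chaperone Hsph1 was lower (−0.20). Of 10 interferon-response genes 6 were higher (median 0.16; Ifi27 0.65). The microglia receptor Csf1r held 1.56, 1.79 and 2.74 CPM with vector and 5.88 and 2.75 CPM with WT, and Aif1 had a log2 fold change of 0.80, on a summed list level of 4.20 to 4.38 CPM with vector and 6.27 to 9.16 CPM with WT. Fibroblast and vessel markers were split, with 5 higher and 4 lower (median 0.06). Mitochondrially encoded protein genes were lower in 11 of 13 (median −0.12), and their median was 0.22 without vector replicate 3. All 5 sex-linked genes had lower values with WT (median −0.19), from −0.33 for Kdm5d to −0.04 for Ddx3y, whose sign changed without vector replicate 3 (0.02) and without WT replicate 1 (0.25).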

How the data were processed

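Estimated counts, effective lengths and TPM per transcript were deposited by the authors, per the file headers, and the submitters' processing notes name FastQC, cutadapt and kallisto. The build and annotation are not given in the sources used here. Of 142552 transcripts, 141429 (99.2%) matched GENCODE M21 on GRCm38. Unmatched transcripts, at most 0.441% of a library's counts, were dropped. The expected counts deposited by the authors were summed per gene (55177) and rounded. The deposited TPM were used for per-length levels and as weights of one alternative.

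The 20 libraries of 18 days in vitro (14510199 to 24024959 counts) were fitted together in 8 groups with the quasi-likelihood test of edgeR 4.0.16 in R 4.3.3 (TMM, filterByExpr, two-sided, Benjamini-Hochberg over 20940 genes of 41147 with a count, called at an adjusted p under 0.05). The common biological coefficient of variation was 14.6%, with 12 residual degrees of freedom. The test was checked on simulated counts. DESeq2 1.42.0, filters, scalings, length offsets, other sets of libraries, the replicate number as a block and leaving out each library were the alternatives.

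Named were Smarcc2, Smarcc1, Pgk1, Fras1, called genes, the 12 genes of smallest p in each direction (mean of at least 1 CPM over the 5 libraries, no overlap, no predicted gene), the members of the lists with an unadjusted p under 0.05 (or else the extremes) and all ribosomal-RNA-like entries. Further list members are named for illustration, and some list members are not reported here. The members, the 20 lists and these rules were chosen with earlier results of these data known. The ribosomal protein and histone lists and the genes in the closing observations were chosen after their values were seen.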

Additional observations from a re-analysis of the deposited data

How the results depend on the processing

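Smarcc2 (log2 fold change 3.31 to 4.02) and Pgk1 (−1.16 to −1.12) were called under all 14 alternatives, and Fras1 under 9. The 3 calls between WT and vector at rest became 178 with DESeq2, 11 with a filter of 1 CPM, 10 with effective-length offsets, 604 with no low-count filter and 36 with the replicate block, and 2 to 23 with 1 library left out (23 without vector replicate 3). The genes called higher (1) became 88, 5, 4, 390 and 19 under these 5 alternatives, 2 with only the groups compared, and 1 to 16 with 1 library left out. The genes called lower (2) became 90, 6, 6, 214 and 17, 1 with only the groups compared or with TPM-weighted length offsets, and 1 to 7 with 1 library left out. The TPM-weighted offsets were added after the data were seen. Under KCl, 2 calls became 6 (DESeq2), 127 (no filter), 4 (only libraries of the same state) and 2 to 4 (1 left out). The difference between states had 1 call with DESeq2, 116 with no filter and 0 to 0 with 1 left out, and could not be fitted within one state. WT against NT (22) gave 115 (DESeq2), 378 (no filter), 4 (same state), 65 (replicate block) and 2 to 17 (1 left out). Vector against NT gave at rest (1236) 682 with TPM-weighted offsets, 2016 with no filter, 225 with only the groups compared and 100 to 1031 with 1 left out, and under KCl (560) 933 with DESeq2, 279 with TPM-weighted offsets, 1437 with no filter and 37 to 241 with 1 left out. Why these counts moved was not tested.

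Values near 0 changed sign. With 1 library left out, mt-Co3 ran from −0.41 to 0.26, Gm26917 from −0.28 to 0.23, mt-Rnr2 from −0.16 to 0.51, mt-Rnr1 from −0.019 to 0.14 and Ddx3y from −0.38 to 0.25. With the replicate block mt-Co3 was 0.11, mt-Rnr1 −0.010 and Ddx3y 0.040, and Gm26917 was 0.0050 with no filter. Same-numbered WT and vector libraries deviated together for replicates 1 and 2 (Pearson r across 13221 genes of 0.245 and 0.0948), but with 2 WT libraries their deviations are mirror images, so the 2 values are not separate, and WT replicate 2 correlated more with vector replicate 3 (0.129). Pairing is not established.

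The WT group has 2 libraries, so its spread is largely borrowed from the other groups of the joint fit. Genes near or under 1 CPM, such as Egr2, Sox10 and Pdgfra, rest on few counts. Of the 24 uncalled genes of smallest p, DESeq2 called 24 (0.85% of all genes), no filter 21 (1.47%) and the replicate block 18 (0.172%). A filter of 1 CPM called 7 (11 of 17245 genes) and effective-length offsets 6 (10 of 20940 genes). The fit without vector replicate 3 called 8 (0.111%), and the fit with only the groups compared called 1 (3 of 18460 genes). The 24 were chosen by their p in the same libraries, so these counts are no separate support. Of 14 alternatives, Hist4h4 passed in 7, Erich3, Plxna2, Cacna1e and Rpl13 in 6 each, and Lars2 in 3. The median of the oligodendrocyte lineage list moved by more than the spread between libraries in 8 of 14.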

Other observations

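Genes of the translation machinery lay higher with WT at rest. The list of 76 cytoplasmic ribosomal protein genes was drawn up after their values had been seen, and gets counts only. All 76 had a higher level with WT than with vector, with log2 fold changes of 0.04 to 0.62 and a median of 0.31, and in 59 (77.6%) both WT libraries lay above all vector libraries, against 13.7% of all genes. Their summed level was 6190, 6123 and 6754 CPM with vector, 7907 and 7781 CPM with WT and 6874 and 7861 CPM in NT. Rpl17 held 88.5, 79.7 and 91.3 CPM with vector and 118 and 112 CPM with WT, and Rpl23a held 130, 115 and 123 CPM with vector and 165 and 169 CPM with WT. None was called by the reported edgeR fit, whereas DESeq2 called 14, where it called 0.85% of all genes. Other edgeR fits called Rpl13 and Rpl17 (replicate block), Rpl13, Rpl11 and Rpl14 (without vector replicate 3), Rpl13 (filter of 1 CPM, effective-length offsets) and 26 (no filter). Under KCl, 75 of 76 were higher, with a median of 0.17. Many have near-identical copies elsewhere, so single values are uncertain.

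Replication-dependent histone genes, also listed after being seen, went the same way. Of 64, 56 (87.5%) were higher with WT, against 48.3% of all genes, with a median of 0.44. In 27 (42.2%) both WT libraries lay above all vector libraries, against 13.7% of all genes. DESeq2 called 7, where it called 0.85% of all genes, and edgeR with the replicate block called 6, where it called 0.172%. The summed level of the 64 was 825 to 1032 CPM with vector, 1374 and 1100 CPM with WT and 980 and 943 CPM in NT. These are short genes. With the genes at a mean of at least 1 CPM split by effective length into 4 bins of 3783 or 3784, the bins had median log2 fold changes of 0.09, 0.05, 0.00 and −0.07 from the shortest to the longest, and 0.05, 0.02, 0.00 and −0.03 under KCl. The part of length in the gene-level differences was not tested.

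Several genes outside the lists had the spread of Slc2a1 and Hk2 over the libraries, and they were picked after their values were seen. Slc16a3, a lactate exporter, held 8.99, 13.0 and 6.05 CPM with vector, 21 and 33.3 CPM with WT and 20.9 and 43.3 CPM in NT. Bnip3, a mitophagy receptor, held 114, 138 and 92.0 CPM with vector, 174 and 283 CPM with WT and 183 and 298 CPM in NT. Egln3, an oxygen-sensing prolyl hydroxylase, held 2.85, 5.33 and 1.02 CPM with vector, 6.55 and 11.8 CPM with WT and 5.14 and 18.2 CPM in NT. Ndrg1 held 37.3, 51.5 and 38.5 CPM with vector, 65.5 and 78.1 CPM with WT and 55.9 and 84.9 CPM in NT. In all 4 genes the WT libraries lay above the vector libraries, replicate 2 was above replicate 1 in both WT and NT, and the log2 fold change under KCl was between 0.10 and 0.29. Their edgeR adjusted p at rest ran from 0.174 to 0.279.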
